A study of Mus musculus with 6 samples.

Results

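The mitotic spindle, kinetochore and cytokinesis genes described here are 54 named genes that act in the G2 and M phases of the cell cycle, found by gene symbol among 55421 genes measured in mouse tongue epithelium. All 54 were listed in the table, and 48 had values high enough to test. The samples were 6 mice, 1 library each. In 3 mice the loxP-flanked (floxed) alleles of the gene for Ire1α, Ern1, were combined with K14CreERT2 (KO), a Cre recombinase that tamoxifen switches on in cells with an active keratin 14 promoter, which are the basal keratinocytes. In 3 littermates the same floxed alleles were present and no Cre (WT). KO and WT mice alike were injected with tamoxifen on 4 days in a row and the tissue was taken on day 5, so tamoxifen and the floxed alleles were shared by the groups and Cre was not. The labels give no ages. The lining was peeled off after 10 minutes at 37 °C in collagenase and neutral protease, which leaves basal and upper keratinocytes together with any cells that stay attached.

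Cells that divide build the machinery of mitosis late in the cycle and take it apart again at its end, so the mRNAs of these genes are a readout of cells in G2 and M phase. In the tongue lining such cells lie in the basal layer, whose progeny move up, stop dividing and cornify. Centromere and kinetochore proteins tie chromosomes to microtubules, kinesins move and shape the spindle, CDK1 with its cyclins drives entry into mitosis, the anaphase-promoting complex drives exit, and a central spindle with its contractile ring divides the cell. The transcription of many of these genes is held down in resting cells and switched on in G2 phase by complexes that share the MuvB core, which bind a short promoter element called the CHR, while NF-Y binds CCAAT boxes beside it.

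The members share promoter letters. Because the CHR is the element through which MuvB complexes time these genes, the stretch around the start site is shown for the 3 members with the smallest p in the comparison below (Cenpf, Kif23 and Racgap1), for Aspm and Kif11, whose KO values also lay below every WT value, and for Cdk1, Ccnb2 and Cdc20, textbook targets of the element. The sequences are from RefSeq, build GRCm38.p6, in the direction of transcription, with 120 bases before and 20 bases from the annotated start. They lie at chr1:189688067-189688206 (minus strand, Cenpf), chr9:61946780-61946919 (minus, Kif23), chr15:99651637-99651776 (minus, Racgap1), chr1:139454653-139454792 (plus, Aspm), chr19:37376262-37376401 (plus, Kif11), chr10:69352893-69353032 (minus, Cdk1), chr9:70421535-70421674 (minus, Ccnb2) and chr4:118437324-118437463 (minus, Cdc20). Capitals mark the CHR, TTTGAA or its reverse complement TTCAAA, and the CCAAT box, CCAAT or its reverse complement ATTGG.
Cenpf: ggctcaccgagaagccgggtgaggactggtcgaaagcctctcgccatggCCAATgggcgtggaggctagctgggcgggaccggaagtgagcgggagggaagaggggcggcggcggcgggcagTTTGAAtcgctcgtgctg
Kif23: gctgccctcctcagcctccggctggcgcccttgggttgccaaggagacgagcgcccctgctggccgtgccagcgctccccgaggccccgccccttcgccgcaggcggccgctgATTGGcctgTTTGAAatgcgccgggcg
Racgap1: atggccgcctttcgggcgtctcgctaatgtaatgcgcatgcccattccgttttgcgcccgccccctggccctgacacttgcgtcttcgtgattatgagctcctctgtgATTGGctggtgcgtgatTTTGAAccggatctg
Aspm: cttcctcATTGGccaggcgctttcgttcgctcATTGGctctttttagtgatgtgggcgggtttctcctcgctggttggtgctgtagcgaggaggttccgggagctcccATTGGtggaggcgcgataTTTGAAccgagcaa
Kif11: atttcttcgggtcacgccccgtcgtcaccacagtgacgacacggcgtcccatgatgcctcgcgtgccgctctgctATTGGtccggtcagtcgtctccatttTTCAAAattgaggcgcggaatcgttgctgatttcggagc
Cdk1: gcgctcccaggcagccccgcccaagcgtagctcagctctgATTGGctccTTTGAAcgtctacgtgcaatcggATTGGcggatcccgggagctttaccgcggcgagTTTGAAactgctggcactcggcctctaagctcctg
Ccnb2: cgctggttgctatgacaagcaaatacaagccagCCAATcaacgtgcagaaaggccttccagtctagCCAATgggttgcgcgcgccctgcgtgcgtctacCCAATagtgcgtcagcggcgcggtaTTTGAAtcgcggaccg
Cdc20: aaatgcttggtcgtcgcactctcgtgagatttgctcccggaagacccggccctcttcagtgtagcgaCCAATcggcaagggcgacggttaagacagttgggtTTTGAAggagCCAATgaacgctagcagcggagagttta

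Counting the start site as base 1, the first letter of the CHR lay at base 3 in Cenpf and Kif23, base 5 in Ccnb2, base 6 in Racgap1 and base 7 in Aspm. It lay 15 bases before the start in Cdk1, which has another copy 71 bases before it, 18 before in Cdc20 and 19 before in Kif11, where it reads on the opposite strand. Ccnb2 has another copy 167 bases before its start, outside the stretch shown. All 8 stretches also hold at least 1 CCAAT box. RefSeq promoters of 300 bases (250 before and 50 from the start) were at hand for 47 of the 54 members. Tpx2, Smc4, Ccna2, Incenp, Cdc25c, Aurkb and Kif20a had no entry. A gene was counted if any of its promoters held a motif. On either strand, TTTGAA stood in 37 of the 47 (78.7%). It stood in 14.6% of the 8568 tested genes with an entry and in 20.2% of all 27025 genes with one. Members without TTTGAA were Birc5, Bub1, Ccnb1, Cdc25b, Cenpe, Kif18a, Mad2l1, Nuf2, Nusap1 and Pttg1. Of 38 DNA replication genes with an entry, which are used in S phase, 5 (13.2%) held TTTGAA. Within 60 bases before to 45 bases after the start the shares were 68.1% of members, 5.26% of DNA replication genes and 4.45% of tested genes. CCAAT boxes were common in both lists, at 74.5% of members, 63.2% of DNA replication genes and 42.9% of tested genes. CHR and CCAAT together stood in 66% of members and 10.5% of DNA replication genes, against 7.19% of tested genes. The CHR variant TTCGAA, which reads the same on either strand, was in 4 member promoters (8.51%), against 2.39% of tested genes. The motifs differ in letters, so a match to one is never a match to another, and a match is a description of the letters, not of binding.

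**Figure D1:**
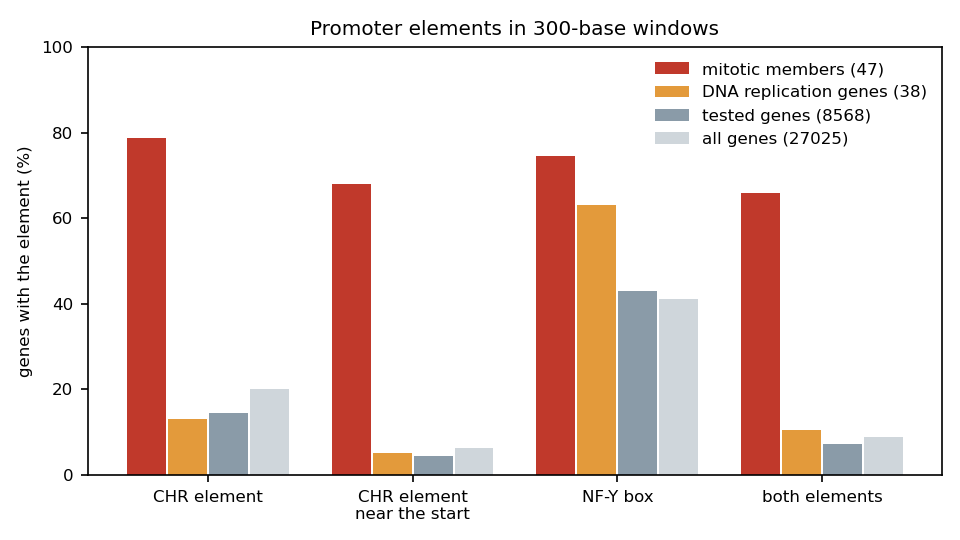
Share of genes (percent, y axis) whose promoters hold a CHR element (TTTGAA), a CHR within 60 bases before to 45 bases after the start, a CCAAT box (NF-Y box) or both a CHR and a CCAAT box. The sets are mitotic members, DNA replication genes, tested genes and all genes, in each case those with a RefSeq promoter. The CHR bars of the members reach 78.7% and 68.1%, while those of the DNA replication genes are 13.2% and 5.26%, and the CCAAT bars of these lists stand closer together at 74.5% and 63.2%.

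The values below are normalised counts, which are whole read counts divided by 1 size factor per library, from 3′ mRNA tags (QuantSeq, which reads 1 tag near the end of each transcript). KO was compared with WT by limma on log2(normalised count + 1) for the 10987 genes that reached 10 normalised counts in 3 or more libraries, and Benjamini-Hochberg adjusted p-values under 0.05 were called. Libraries held 4606309 to 6286153 reads, and within a group their Spearman correlation across tested genes was 0.944 to 0.968. Over all genes 134 were higher and 64 lower in KO. Ern1 itself had 78.0, 117 and 123 normalised counts in KO replicates 1 to 3, against 102, 105 and 77.1 in WT replicates 1 to 3. The sources used here do not say which exons the loxP sites flank, so a tag at the 3′ end does not check the deletion. A tested member had 7 to 597 reads in a library with a median of 54.5, where counting error alone is 13.5% of the value.

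Most of the mitotic genes had lower values in KO than in WT epithelium, but no member passed the limma threshold. Of the 48 tested members, 42 (87.5%) had a log2 fold change (KO over WT) below 0, against 50.9% of all tested genes, and the median was -0.42, against -0.01. The interquartile range ran from -0.64 to -0.15 and the full range from -1.15 in Racgap1 to 0.29 in Spc25. With limma 0 members were called in either direction, where 1.8% of all genes were called (0.583% lower and 1.22% higher in KO). At an unadjusted p under 0.05, 14 members (29.2%) were lower in KO and 0 higher, against 6.84% and 6.68% of all genes. In 12 members (25%) every KO value lay below every WT value, against 9.25% of all genes, and in 0 members did every KO value lie above, against 9.84%. These 12 were Cenpf, Knl1, Cenpa, Ndc80, Kif23, Kif11, Racgap1, Aspm, Tpx2, Ube2c, Mad2l1 and Smc4. The test on recovered reads with edgeR called 0 members, against 1.73% of all genes (0.592% lower). DESeq2 called 3, all lower (Cenpf adjusted p = 0.00913, Kif23 0.0408 and Racgap1 0.0494), against 3.19% of all genes (1.33% lower and 1.87% higher). Without the filter on low values limma called Cenpf alone (adjusted p = 0.0261), against 1.1% of all genes (0.409% lower). With a weight fitted for each library it called 5 members, Cenpf, Kif23, Racgap1, Kif11 and Cenpa, all lower, against 5.37% of all genes (2.48% lower). Over the 17 alternatives the adjusted p ran from 0.00913 to 0.229 for Cenpf, 0.0230 to 0.294 for Kif23 and 0.0298 to 0.287 for Racgap1, and with any library left out 0 members were called by limma. The authors' deposited table holds 341 called genes, 142 lower and 199 higher in KO, where 21778 genes had a value above 0. Of the members it holds 2, both lower. These are Cenpf (log2 fold change -1.09, authors' adjusted p = 0.00861, q = 0.0107) and Kif23 (log2 fold change -0.95, authors' adjusted p = 0.0401, q = 0.0493). The largest q in that table was 0.0495, so Kif23 stood near its edge.

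The libraries of a group were not alike. KO replicate 2 was the lowest of the 6 libraries for 27 of the 48 members, against 17.2% of all genes, and WT replicate 2 was the highest for 30, against 14.2%. Some KO library was the lowest for 38 members, against 49.4% of all genes, and some WT library the highest for 44, against 52.9%. Averaged over the tested members, log2 values relative to the WT mean were -0.26, -0.63 and -0.32 in KO replicates 1 to 3, against -0.20, 0.24 and -0.03 in WT replicates 1 to 3. All KO libraries lay below all WT libraries, but KO replicate 1 and WT replicate 1 were close. Leaving out KO replicate 2 brought the median log2 fold change of the members to -0.27, and leaving out any other library kept it between -0.51 and -0.30. Library names come in 2 styles, a number (KO replicate 1 with WT replicates 1 and 2) and a letter (KO replicates 2 and 3 with WT replicate 3). The meaning of the styles is not given. Within the number style the median of the members was -0.27 with 34 of 48 below 0, and within the letter style it was -0.42 with 43 below 0. In bulk RNA, fewer cells of a kind and less RNA per cell cannot be told apart.

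Cell type markers also differed between the groups. All 7 basal keratinocyte markers were tested and 1 (Itgb4) was called higher, and their summed normalised counts were 36389 to 63175 in KO and 25654 to 27832 in WT. Within that list the markers moved apart, since the log2 fold change was 1.12 for Krt14 and 1.04 for Krt5, while Krt15 stood at -1.25 and Trp63 at -0.58. The 6 suprabasal markers summed to 637516 to 927058 in KO and 548647 to 764490 in WT. They also moved apart. Krt6a was separated, with 189326 to 235885 in KO and 97902 to 127663 in WT (log2 fold change 0.86, limma adjusted p = 0.323). Sprr3 stood at -0.51 and Krt84 at 0.40, while Lor, Krt4 and Krt13 stood at 0.07, 0.06 and 0.04. Of 6 fibroblast markers 3 were tested and 1 (Dcn) was called lower, with sums of 213 to 1073 in KO and 1362 to 1877 in WT. Dcn made up most of the sum in every library but KO replicate 1, where it had 530 of 1073. The collagens stood the other way in value through KO replicate 1. Col1a2 had 235, 10.3 and 7.62 in KO, against 21.7, 14.0 and 5.22 in WT (log2 fold change 1.15, limma adjusted p = 0.702), and Col1a1 had a log2 fold change of 1.01 (0.742). Skeletal muscle markers summed to 65.5 to 1683 in KO and 79.2 to 238 in WT with Acta1 at 0 throughout, and erythrocyte markers to 44.0 to 1170 in KO and 229 to 479 in WT with Alas2 at 0 throughout. KO replicate 1 held the highest sum of both, and of every other marker list but the fibroblast one. Leukocyte markers summed to 409 to 650 in KO and 372 to 598 in WT, with Cd3e at 3 reads or fewer in each library. Endothelial markers summed to 37.2 to 60.7 in KO and 17.0 to 29.2 in WT, with Cldn5 and Egfl7 at 3 reads or fewer. Schwann cell and melanocyte markers summed to 24.1 to 78.0 in KO and 10.4 to 18.3 in WT, with Mlana called higher. Taste markers summed to 6.89 to 14.1 in KO and 5.24 to 11.8 in WT, with Gnat3, Trpm5 and Car4 at 3 reads or fewer. The part of these cell types in the mitotic values was not tested.

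**Figure D2:**
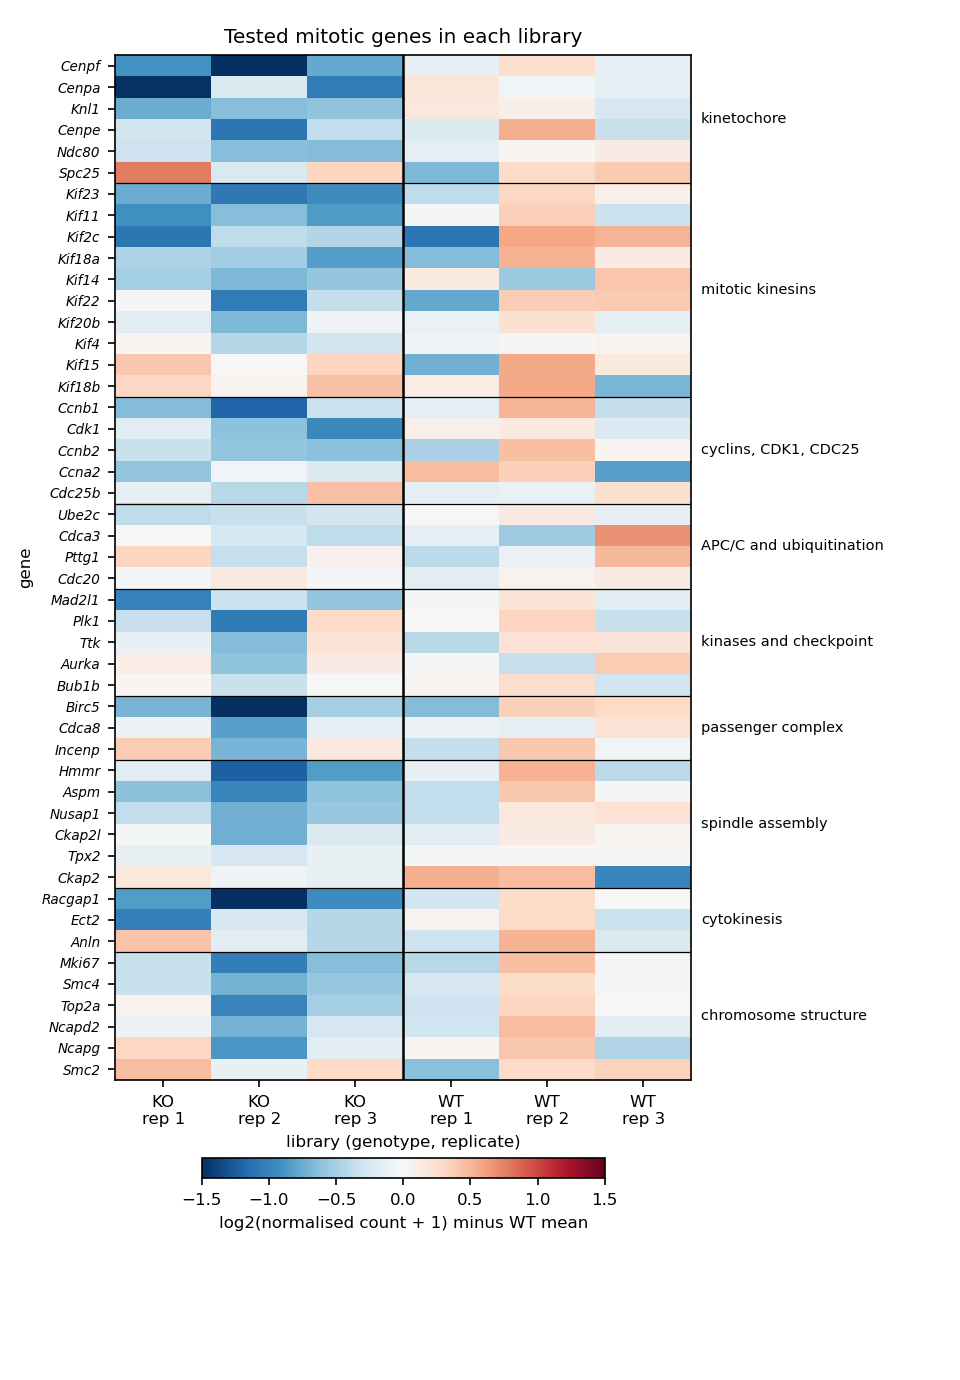
Each row is a tested mitotic gene, grouped by role, and each column a library, with KO replicates left of WT replicates. Colour gives log2(normalised count + 1) minus the WT mean of that gene and is saturated at 1.5 in either direction. Blue fills most of the KO columns, deepest in KO replicate 2, and WT replicate 2 is the column with the most red.

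Centromere and kinetochore genes had the lowest median of the 9 roles, at -0.62 for 6 tested members, of which 5 were below 0. Cenpf encodes a large protein that gathers at kinetochores in G2 and M phase. It had 114, 67.2 and 126 normalised counts in KO replicates 1 to 3, against 198, 257 and 196 in WT replicates 1 to 3. The groups were separated, and the KO mean of 102 ± 30.9 was below the WT mean of 217 ± 34.4 (SD, n = 3 each) with a log2 fold change of -1.12 ± 0.253 (SE) and a limma adjusted p of 0.0589, the smallest of any member. Knl1, the scaffold on which checkpoint proteins assemble, had 42.3, 45.7 and 46.7 in KO, against 80.1, 75.9 and 60.1 in WT. Its KO values lay close together and below all WT values (log2 fold change -0.66 ± 0.222, limma adjusted p = 0.198). Cenpa, the histone H3 variant that marks centromeres, had 19.5, 48.3 and 26.7 in KO, against 64.1, 55.0 and 50.9 in WT. KO replicate 2, low for most members, was here the highest KO library and came close to the WT values (log2 fold change -0.92 ± 0.327, limma adjusted p = 0.228). Ndc80, the microtubule-binding subunit of the NDC80 complex, was separated as well, with 41.2, 32.7 and 32.4 in KO, against 46.2, 52.4 and 56.2 in WT (log2 fold change -0.53, limma adjusted p = 0.367). Its partner Spc25 went the other way in value, with 84.5, 41.4 and 61.0 in KO, against 30.2, 59.3 and 64.0 in WT, and the groups overlapped (log2 fold change 0.29, 95% interval -0.47 to 1.05, and -0.043 without WT replicate 1). Cenpe, a kinetochore motor, had 85.6, 48.3 and 80.0 in KO, against 89.5, 152 and 82.3 in WT, with groups that overlapped and WT replicate 2 alone far up (log2 fold change -0.58, limma adjusted p = 0.443). Nuf2, another NDC80 subunit, was under the filter with 6.5, 3.45 and 3.81 in KO and 7.54, 6.11 and 10.4 in WT.

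The mitotic kinesins had 10 tested members with a median log2 fold change of -0.53, and 8 were below 0. Kif23 (MKLP1), which with Racgap1 forms the centralspindlin complex of the central spindle, had 81.3, 64.6 and 70.5 in KO, against 105, 169 and 144 in WT. All KO libraries were below all WT libraries, with means of 72.1 ± 8.43 in KO and 139 ± 32.6 in WT (SD, n = 3 each), a log2 fold change of -0.92 ± 0.227 and a limma adjusted p of 0.0838. Kif11 (Eg5), the motor that pushes spindle poles apart, had 32.5, 39.6 and 34.3 in KO, against 61.3, 80.3 and 49.6 in WT. These values were separated too, with a log2 fold change of -0.80 ± 0.254 and a limma adjusted p of 0.169. Kif14, needed at the midbody, had 27.1, 24.1 and 25.7 in KO, against 43.4, 26.2 and 52.2 in WT. The KO libraries were nearly equal and WT replicate 2 was level with them, so the groups overlapped (log2 fold change -0.59, limma adjusted p = 0.448). Kif18a, which damps chromosome movements, Kif2c, a microtubule depolymerase, and Kif22, a chromosome-arm motor, had log2 fold changes of -0.60, -0.63 and -0.47, and in each WT replicate 1 lay within or below the range of the KO libraries. Kif20b, a motor of cytokinesis, and the chromokinesin Kif4 stood at -0.30 and -0.22. Kif15, which can share the work of Kif11, and Kif18b, which works at microtubule ends, stood at 0.24 and 0.27, with 42.2 to 56.3 and 18.1 to 23.8 in KO, against wider ranges of 25.4 to 63.7 and 10.4 to 26.2 in WT. Kif15 turned to -0.12 without WT replicate 1, and Kif18b to -0.074 without WT replicate 3. Kif20a (MKLP2) was under the filter with 2.17, 6.03 and 4.76 in KO and 2.83, 13.1 and 6.53 in WT.

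Among the cyclins, CDK1 and the CDC25 phosphatases, all 5 tested members were below 0 with a median of -0.52. In 0 of them were the groups separated, against 9.25% of all genes with KO lower and 9.84% with KO higher. Ccnb1, cyclin B1, had 52.0, 35.3 and 65.8 in KO, against 74.5, 118 and 64.0 in WT. KO replicate 3 was just above WT replicate 3 (log2 fold change -0.73 ± 0.301, limma adjusted p = 0.320). Cdk1, the kinase that cyclin B activates, had 83.4, 61.2 and 47.6 in KO, against 99.0, 104 and 81.0 in WT. Again a single crossing, KO replicate 1 above WT replicate 3, made the groups overlap (log2 fold change -0.58 ± 0.247, limma adjusted p = 0.335). Ccnb2, cyclin B2, had 40.1, 33.6 and 32.4 in KO, against 35.8, 69.8 and 52.2 in WT (log2 fold change -0.52, limma adjusted p = 0.481). Ccna2, cyclin A2, used in S and G2 phase, stood at -0.28 on 7 to 25 reads per library. Cdc25b, which activates CDK1 at the entry to mitosis, was level with 130.0, 106 and 193 in KO, against 128, 133 and 167 in WT (log2 fold change -0.03, 95% interval -0.57 to 0.50). Cdc25c was under the filter with 4.33, 4.31 and 6.67 in KO and 2.83, 13.1 and 6.53 in WT.

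The genes of the anaphase-promoting complex and of ubiquitination in mitosis were closest to no difference, with a median of -0.10 over 4 tested members. Ube2c, the ubiquitin-conjugating enzyme of that complex, was separated by small amounts, with 79.1, 81.9 and 84.8 in KO, against 103, 113 and 94.0 in WT (log2 fold change -0.33 ± 0.191, limma adjusted p = 0.511). Cdc20, the activator of the complex at anaphase, had 39, 44.0 and 39.1 in KO, against 34.9, 41.0 and 43.1 in WT. The groups overlapped throughout and the interval of the log2 fold change, -0.49 to 0.56 around 0.04, includes the median of the members. Pttg1 (securin), which the complex destroys to free separase, had 237, 150 and 199 in KO, against 145, 178 and 266 in WT (log2 fold change 0.01). Cdca3, an adaptor for the destruction of the CDK1 inhibitor Wee1, had 43.3, 36.2 and 33.4 in KO, against 39.6, 29.7 and 70.5 in WT. There WT replicate 3 alone was high (log2 fold change -0.22, limma adjusted p = 0.835).

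Kinases and checkpoint genes had a median of -0.19 with all 5 tested members below 0. Mad2l1 (MAD2), which holds back anaphase, was low in all libraries and separated, with 11.9, 19.8 and 16.2 in KO, against 24.5, 28.8 and 22.2 in WT (log2 fold change -0.64 ± 0.327, limma adjusted p = 0.435). Plk1, polo-like kinase 1, was spread widely, with 53.1, 31.9 and 82.9 in KO, against 67.9, 84.6 and 53.5 in WT (log2 fold change -0.37, limma adjusted p = 0.702). KO replicate 3 was above all but the highest WT library. Ttk (MPS1), the kinase that starts checkpoint signalling, had 30.3, 20.7 and 38.1 in KO, against 24.5, 38.4 and 37.9 in WT (log2 fold change -0.19, limma adjusted p = 0.862). Aurka, which works at spindle poles, and Bub1b (BUBR1), part of the checkpoint complex, stood at -0.12 and -0.10. Bub1 was under the filter with 9.75, 3.45 and 4.76 in KO and 3.77, 10.5 and 3.92 in WT.

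In the chromosomal passenger complex, which corrects faulty attachments and then moves to the central spindle, Birc5 (survivin) stood apart from its partners. It had 63.9, 31.0 and 73.4 in KO, against 66.0, 134 and 128 in WT, so WT replicate 1 lay among the KO libraries (log2 fold change -0.97 ± 0.362, limma adjusted p = 0.255). Cdca8 (borealin) had 142, 85.3 and 138 in KO, against 142, 138 and 176 in WT (log2 fold change -0.35, limma adjusted p = 0.588). KO replicate 2 was the lowest of the 6 libraries and WT replicate 3 the highest. Incenp, the scaffold of the complex, had 116, 54.3 and 98.2 in KO, against 68.8, 118 and 86.2 in WT, which overlapped fully (log2 fold change -0.06, limma adjusted p = 0.960). The kinase of the complex, Aurkb, was under the filter with 3.25, 5.17 and 2.86 in KO and 13.2, 4.36 and 6.53 in WT.

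Spindle assembly genes had a median of -0.44 with all 6 tested members below 0. Aspm, which focuses microtubules at the poles, was separated, with 74.8, 57.7 and 75.3 in KO, against 88.6, 153 and 112 in WT (log2 fold change -0.73 ± 0.243, limma adjusted p = 0.196). Nusap1, which bundles microtubules near chromosomes, had 97.5, 75.8 and 84.8 in KO, against 97.1, 140.5 and 146 in WT. The highest KO and the lowest WT library were level (log2 fold change -0.55 ± 0.222, limma adjusted p = 0.306). Hmmr, a spindle and hyaluronan-binding protein, had 47.7, 22.4 and 29.5 in KO, against 49.0, 77.7 and 40.5 in WT (log2 fold change -0.74 ± 0.340, limma adjusted p = 0.376). Tpx2, the activator of Aurora A on the spindle, was separated by a narrow gap, with 114, 103 and 113 in KO, against 121, 124 and 124 in WT (log2 fold change -0.16, limma adjusted p = 0.780). Ckap2l and Ckap2, microtubule-associated proteins, stood at -0.32 and -0.01, and for Ckap2 the lowest library was WT replicate 3 at 13.1.

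Cytokinesis genes included the member with the most negative log2 fold change. Racgap1 (MgcRacGAP), the partner of Kif23 in centralspindlin, had 43.3, 24.1 and 40.0 in KO, against 64.1, 95.1 and 78.4 in WT. The groups were separated, with means of 35.8 ± 10.3 in KO and 79.2 ± 15.5 in WT (SD, n = 3 each), a log2 fold change of -1.15 ± 0.281 and a limma adjusted p of 0.0812. Ect2, the exchange factor that centralspindlin recruits to activate RhoA, had 26.0, 45.7 and 40.0 in KO, against 55.6, 66.3 and 43.1 in WT. KO replicate 2 was above WT replicate 3 (log2 fold change -0.57 ± 0.287, limma adjusted p = 0.433). Anln (anillin), a scaffold of the contractile ring, had 92.1, 61.2 and 50.5 in KO, against 54.7, 98.6 and 58.8 in WT, with groups that overlapped (log2 fold change -0.05, 95% interval -0.71 to 0.61). Prc1, which bundles the central spindle, is listed at 0 in all 6 libraries.

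Chromosome structure genes had a median of -0.41 over 6 tested members. Smc4, a condensin subunit, was separated, with 297, 229 and 253 in KO, against 317, 453 and 368 in WT (log2 fold change -0.54 ± 0.193, limma adjusted p = 0.233). Its condensin partner Smc2 was not lower in value, with 133, 89.6 and 119 in KO, against 62.2, 118 and 123 in WT (log2 fold change 0.22, 95% interval -0.41 to 0.84, and -0.096 without WT replicate 1). Mki67 (Ki-67), the coat of mitotic chromosomes and the usual stain for dividing cells, had 104, 63.8 and 83.9 in KO, against 98.0, 179.8 and 129 in WT. KO replicate 1 was just above WT replicate 1 (log2 fold change -0.67 ± 0.267, limma adjusted p = 0.297). Top2a, which untangles DNA and had the most reads of the members, had 431, 209 and 294 in KO, against 335, 521 and 414 in WT. KO replicate 1 was the second highest of the 6 libraries (log2 fold change -0.48 ± 0.266, limma adjusted p = 0.480). The condensin I subunits Ncapd2 and Ncapg stood at -0.35 and -0.24.

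**Figure D3:**
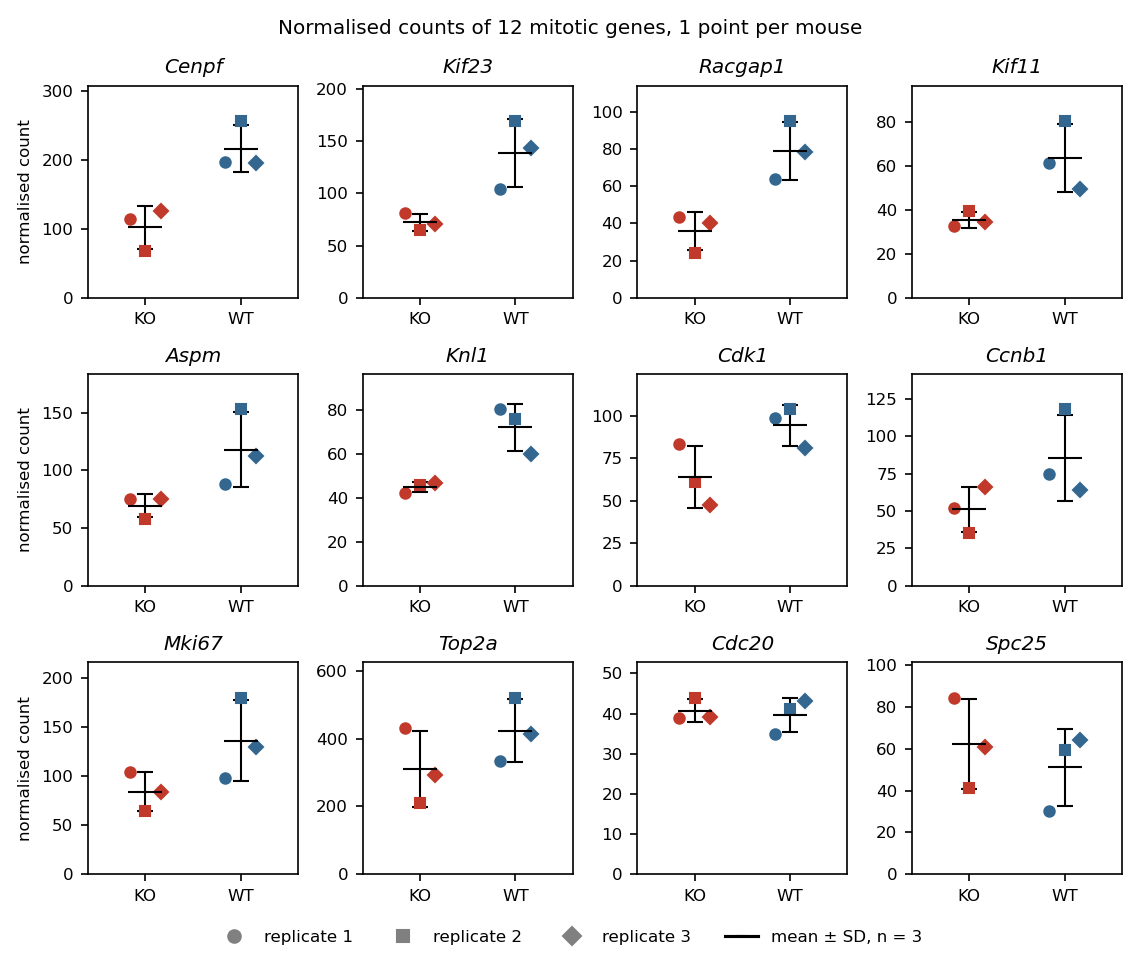
Normalised counts (y axis, linear, from 0) of 12 mitotic genes, with 1 point per mouse, KO left of WT, marker shape for replicate number, and mean ± SD as bars (n = 3). The KO points of Cenpf, Kif23, Racgap1, Kif11, Aspm and Knl1 lie below every WT point, those of Cdk1, Ccnb1, Mki67 and Top2a overlap WT, and so do those of Cdc20 and Spc25.

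**Figure D4:**
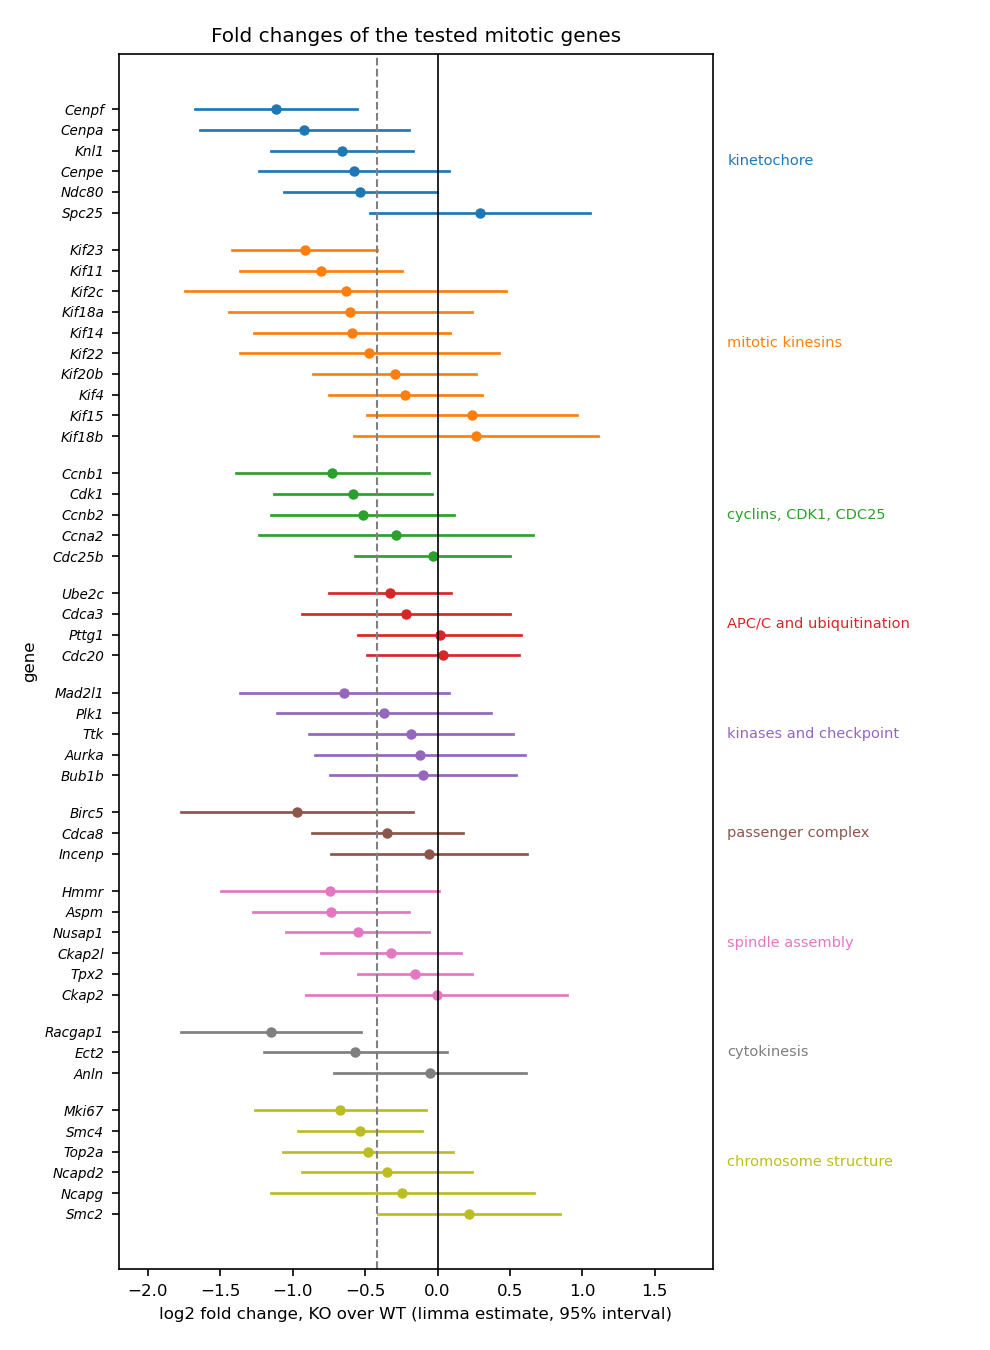
Log2 fold changes (x axis, KO over WT, limma estimate with 95% interval) of the 48 tested mitotic genes, coloured by role, with the dashed line at the members' median of -0.42. Of the points 42 lie left of 0, with Racgap1 (-1.15) and Cenpf (-1.12) farthest left and Spc25 (0.29) farthest right.

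Over a wider set of mitosis genes the median lay nearer 0. From 4 further lists of kinetochore, spindle, anaphase and mitotic entry genes, 118 of 142 names were tested. Of these 70 (59.3%) were below 0, against 50.9% of all tested genes, with a median log2 fold change of -0.08. Every KO value lay below every WT value in 11 (9.32%) and above in 3, against 9.25% and 9.84% of all genes. At an unadjusted limma p under 0.05, 7 (5.93%) were lower and 4 (3.39%) higher, against 6.84% and 6.68%. Where limma called 0.583% of all genes lower and 1.22% higher in KO, 0 of these were called lower and 1 higher. That gene was Psrc1, a microtubule-associated protein of the spindle and a known p53 target, which had 79.1, 93.9 and 63.8 in KO, against 8.48, 20.1 and 23.5 in WT. The groups were far apart, with means of 79.0 ± 15.0 in KO and 17.4 ± 7.87 in WT (SD, n = 3 each), a log2 fold change of 2.22 ± 0.366 and a limma adjusted p of 0.0139. The call was lost without KO replicate 1 (adjusted p = 0.0630), without KO replicate 3 (0.05005) and with the library name style as a covariate (0.0628), and over the 17 alternatives the adjusted p ran from 3.35e-05 to 0.0630. The other lists had medians of -0.06 for 31 kinetochore genes, 0.01 for 38 spindle, centrosome and cytokinesis genes, -0.10 for 30 anaphase, cohesin and condensin genes and -0.23 for 19 mitotic entry genes. In the mitotic entry list the smallest p-values belonged to Cdkn3, a phosphatase acting on CDKs, with 6.5, 15.5 and 5.72 in KO, against 19.8, 28.8 and 28.7 in WT (log2 fold change -1.49 ± 0.432, limma adjusted p = 0.133), and to Hmgb2, a chromatin protein. Hmgb2 had 120.3, 58.6 and 106 in KO, against 160.2, 152 and 235 in WT (log2 fold change -0.97 ± 0.287, limma adjusted p = 0.140). Both were separated. In the other lists the leading genes were Mis18a and Cenpl, which act in centromere assembly, at -1.02 and -0.68, Espl1 (separase) and Anapc13 at -0.90 and -0.47, and the microtubule plus-end protein Clasp2 at 0.58 (limma adjusted p = 0.359, 0.377, 0.367, 0.386 and 0.170).

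Of 23 regulators of G2 and M phase transcription, 18 were tested and the median was 0.07. Limma called 0 of them, against 1.8% of all genes. The 2 with the smallest p were Nfyb, an NF-Y subunit, at 0.73 (limma adjusted p = 0.141) and E2f5, a repressor that can join the MuvB core, at -0.70 (0.382). Nfyb had 209, 153 and 160.1 in KO, against 82.9, 108 and 123 in WT. It was among 2 of the 18 in which every KO value lay above every WT value, against 9.84% of all genes. The activators that join the MuvB core, Foxm1 and Mybl2, were under the filter. Foxm1 had 6.5, 6.03 and 7.62 in KO and 3.77, 6.98 and 3.92 in WT, and Mybl2 had 13.0, 7.76 and 5.72 in KO and 6.6, 9.60 and 7.84 in WT. Tested members with a CHR in the promoter had a median log2 fold change of -0.36 (36 genes) and those without one -0.59 (8 genes). Tested genes that are not members had -0.03 with a CHR in the promoter (1211 genes) and 0.00 without (7313 genes). With the narrower window near the start, members had -0.35 with a CHR (31 genes) and -0.59 without (13 genes), and tested genes that are not members had -0.08 (350 genes) and 0.00 (8174 genes).

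DNA replication genes stood on the other side of 0. Of 42 tested out of 48 listed, 33 had a log2 fold change above 0 and 9 (21.4%) below 0, with a median of 0.24. Over all tested genes 50.9% were below 0. Limma called 0 of the 42, against 1.8% of all genes. Among those not tested, Cdt1, Fen1, Gins2 and Tk1 are listed at 0 in all 6 libraries. Without KO replicate 1 the median of the tested genes was 0.13 with 26 above 0. Without WT replicate 1 it was also 0.13, with 30 above 0. Leaving out KO replicate 2 gave 0.36. KO replicate 1 also had the highest summed markers of every cell type listed but fibroblasts. The part of those cell types was not tested. At an unadjusted p under 0.05, 2 (4.76%) were higher and 0 lower in KO, against 6.68% and 6.84% of all genes, namely Rrm2 and Rrm1, which together form ribonucleotide reductase, the enzyme that makes the precursors of DNA. Rrm2 had 57.4, 31.9 and 32.4 in KO, against 8.48, 20.9 and 11.8 in WT (log2 fold change 1.53 ± 0.393, limma adjusted p = 0.0918). Rrm1 had 232, 92.2 and 113 in KO, against 50.9, 77.7 and 56.2 in WT (log2 fold change 1.14 ± 0.327, limma adjusted p = 0.129). Both were among 5 of the 42 in which every KO value lay above every WT value, against 9.84% of all genes. In 1 of the 42 every KO value lay below, against 9.25%. For Rrm1 KO replicate 1 was far above the other 5 libraries. DESeq2 called Rrm1 (adjusted p = 0.0327, with 0.0327 to 0.338 over the alternatives), which also stands in the authors' deposited table with a log2 fold change of 1.24.

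The contrast of these lists was seen in each KO library. Relative to the WT mean, DNA replication genes averaged 0.61, 0.01 and 0.22 on the log2 scale in KO replicates 1 to 3, against -0.16, 0.18 and -0.02 in WT replicates 1 to 3. Mitotic members minus DNA replication genes came to -0.86, -0.64 and -0.55 in KO, against -0.05, 0.05 and -0.01 in WT, with an SD of 0.164 in KO and 0.0505 in WT. In each KO library the mitotic genes stood below the DNA replication genes relative to WT. Both lists are centred on their WT means, so the WT differences average 0 by construction and only their spread is a measurement. Among the WT libraries, replicate 2 was the high one and replicate 1 the low one in both lists. This difference was chosen after its values were seen and is given with no test. Leaving out a library moved the mean difference between -0.75 and -0.59, around -0.68. Within the library name styles the median log2 fold change of DNA replication genes was 0.58 (number) and 0.01 (letter), while that of the members was -0.27 and -0.42.

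**Figure D5:**
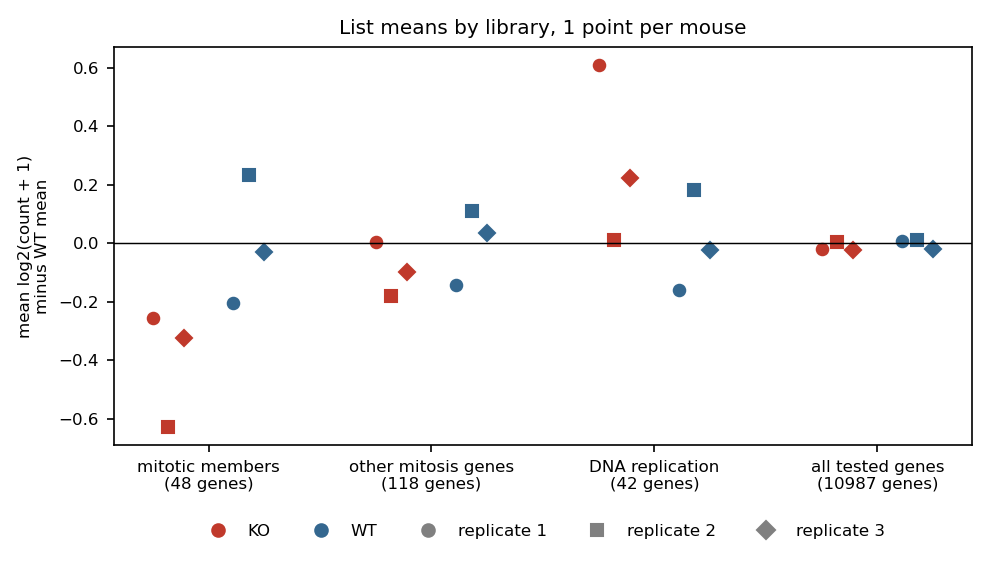
Mean log2(normalised count + 1) minus the WT mean (y axis) of each library for the mitotic members, other mitosis genes, DNA replication genes and all tested genes, with 1 point per mouse, KO (red) left of WT (blue) and marker shape for replicate number. KO points of the mitotic members are at -0.26, -0.63 and -0.32, those of the DNA replication genes at 0.61, 0.01 and 0.22, and all tested genes lie close to 0 in every library.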

How the data were processed

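Tongue epithelium of 6 mice (3 KO, 3 WT) was measured by QuantSeq 3′ mRNA sequencing, and the replicates are separate mice per the labels. The authors deposited normalised counts per gene and library, a linear signal per the file headers. Per the submitters' processing notes the tools were FastQC, STAR, featureCounts and DESeq2, with no version stated. For build, annotation and strand setting, nothing is given in the sources used here, so reads of overlapping or antisense genes cannot be told apart. A second deposited table, of genes the authors called, holds per the file headers a log2 fold change, a Wald score, a p-value and a q-value for each gene.

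Library names in the labels tied each column to its sample, and 0 value columns stayed unmatched. Every value was a whole multiple of 1 step per library (100% within 0.01 of a whole read), so read counts were recovered, and 3 reads are worth 2.59 to 3.92 normalised counts. The floor and the counting error of a read count cover counting only, whereas the 95% intervals of fold changes come from limma and rest on the spread between mice. Rows without a gene symbol (3192, at most 0.119% of a library) were kept. Values were compared as log2(value + 1), which understates the change of low genes, with limma 3.58.1 (intensity trend, Benjamini-Hochberg, two-sided) in R 4.3.3 after a filter of at least 10 in 3 libraries. The 6 members under it are named with their values. The fit was also run on simulated counts. Their planted changes were larger than the members' median change, and they held no shift shared by many genes of a library. That run therefore does not show how often the fit would call changes of the members' size. Alternatives were edgeR 4.0.16 and DESeq2 1.42.0 on recovered reads, other pseudocounts, filters and scalings, library weights, the library name style as covariate, the replicate number as a block, and each library left out. With 3 mice against 3, an exact permutation test cannot go below 0.1 and none was run.

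The members and the lists were chosen with earlier results of these data known, so a direction shared by the members is a description. Values in every library are given for 3 tested members per role, those with the smallest p, for Mki67, Top2a, Ccnb1 and Cdk1, and of each further list the 2 genes with the smallest p and all called ones are named. Other genes given by library were chosen after their values were seen. Promoters are from RefSeq (GRCm38.p6). The authors' build was not compared with it, and no coordinate comes from their files.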

Additional observations from a re-analysis of the deposited data

How the results depend on the processing

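Limma called 198 genes over all genes, 0 members and 1 further gene of the lists (Psrc1). DESeq2 called 351 (146 lower, 205 higher in KO), 3 members and 2 further genes (Psrc1 and Rrm1). A weight per library gave 590 (273 lower, 317 higher), 5 members (Cenpf, Kif23, Racgap1, Kif11 and Cenpa, limma adjusted p = 0.0230 to 0.0463) and 4 further genes (Psrc1, Cdkn3, Mis18a and Nfyb). Without the filter 1 member (Cenpf) was called, and with the library name style as covariate 82 genes (21 lower, 61 higher), 0 members and 0 further genes. Leaving out 1 library gave 68 (without KO replicate 3) to 186 genes, with 75 when KO replicate 1 was the one left out, 112 for KO replicate 2 and 80 for WT replicate 2, and 0 to 1 further genes, while members stayed at 0. The median log2 fold change of the members was -0.51 to -0.27 over the 17 alternatives. The difference between members and DNA replication genes, tried under the same alternatives after seeing the data, was -0.82 to -0.59. The median of the DNA replication genes, also tried after seeing the data, was 0.13 to 0.36. Of 995 log2 fold changes of tested members and other named genes under alternatives, 933 kept direction and side of the threshold, 13 came to pass it, 3 (Psrc1) no longer did and 46 changed direction, in 15 members. The name style turned Anln (0.12), Cdc20 (-0.0059), Incenp (0.062), Bub1b (0.0073), Ckap2 (0.28), Ncapg (0.0068) and Pttg1 (-0.031). Library weights turned Incenp (0.0028), Ttk (0.042), Aurka (0.14) and Cdc25b (0.29). Counts turned Cdc25b (edgeR 0.0026, DESeq2 0.0049) and Pttg1 (edgeR -0.0058, DESeq2 -0.0043), equal totals Pttg1 (-0.023) and quantile normalisation Ckap2 (0.016). With 1 library left out Anln ranged from -0.29 to 0.21, Cdc20 from -0.049 to 0.10, Cdca3 from -0.49 to 0.12, Incenp from -0.28 to 0.26, Ttk from -0.39 to 0.045, Aurka from -0.29 to 0.12, Bub1b from -0.25 to 0.030, Cdc25b from -0.27 to 0.16, Ckap2 from -0.50 to 0.26, Ncapg from -0.52 to 0.073, Pttg1 from -0.18 to 0.26, Kif15 from -0.12 to 0.52, Kif18b from -0.074 to 0.55, Smc2 from -0.096 to 0.39 and Spc25 from -0.043 to 0.55. The cause was not tested. The labels do not say whether replicate numbers pair the mice. Deviations of same-numbered libraries from their group means had correlations of -0.25, 0.03 and 0.28. Those of differently numbered libraries ran from -0.40 to 0.41. With 3 libraries in a group these correlations cannot decide whether the mice were paired. The replicate block gave 178 genes, 0 members, a member median of -0.42 and 1 further gene. The smallest members (7 to 25 reads per library) carry the widest counting error.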
